A study of Bos taurus with 4 samples.

Results

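The slow-fibre contractile genes of bovine muscle were examined in the semitendinosus of beef and dairy bulls. Their members were 9 genes of the slow (type I) sarcomere, *MYH7*, *MYL2*, *MYL3*, *MYL6B*, *TNNC1*, *TNNI1*, *TNNT1*, *TPM3* and *MYOZ2*, and every array probe whose reference accession carries such a symbol was used. This gave 26 of the 43653 probes of the array, for 8 of the 9 genes. No probe was matched to *TNNI1*, the slow inhibitory troponin, which was not analysed here. The gene *MYH7* had 6 probes, *TPM3* had 6, *MYL2*, *TNNC1* and *TNNT1* had 3 each, *MYL3* and *MYOZ2* had 2 each and *MYL6B* had 1. The probes of a gene share its transcript and are not independent measurements of it.

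Hereford bulls (HER, a beef breed) were compared with Holstein-Friesian bulls (HF, a dairy breed taken as the control), all of them 15 months old, with 4 bulls per breed and no treatment named in the labels. Total RNA of the semitendinosus, a muscle of the hind limb, was hybridised to 4 dual-colour Agilent bovine arrays, with 1 bull of each breed on each array and the same dye orientation on all 4 arrays. All arrays lay on 1 slide, so there was no slide batch to set as a block. The comparison asks whether the slow-fibre transcripts differ in level between the breeds.

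Skeletal muscle is built of fibre types that use different isoforms of the same sarcomere parts. Slow fibres contract slowly, rely on oxidative metabolism and resist fatigue, and they hold the slow myosin heavy chain with its own light chains, troponin subunits and tropomyosin. Fast fibres use counterpart genes for most of these parts. Several slow isoforms, among them *MYH7*, *MYL2*, *MYL3* and *TNNC1*, are also the isoforms of the heart ventricle.

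Values are log2(Cy5/Cy3), the log2 ratio of the red over the green dye after background correction and loess normalization, unless a level is named. The dye labels put HER in Cy3 and HF in Cy5, by which a value above 0 would be higher in HF. The same labels carry a remark on swapped dyes, and the tables of the study run the opposite way, so the breed behind a sign is not settled and values are given by dye only. Dye and breed cannot be told apart on these arrays, since each breed had 1 dye throughout. The bull read in Cy5 is called the Cy5 bull and its partner on the array the Cy3 bull.

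Between 76.7% and 82.1% of the spots of an array were well above background in Cy5 and between 65.2% and 76.3% in Cy3, and none was saturated. All 26 slow-fibre probes were well above background in both channels on every array. Between any 2 arrays the correlation of log ratios over the tested probes was r = 0.332 to 0.618, probes being no independent replicates. Array 1 had the lowest mean correlation with the others, 0.389 against 0.453 to 0.480, and all of its correlations were above 0. Skeletal muscle markers were read in all samples, with 9 of the 12 listed genes on the array and all 9 well above background in both channels on every array. Of the 8 heart markers, 5 were on the array. *NPPB* and *NKX2-5* were above background on no array in either channel and *NPPA* on some, while *TNNI3* and *GATA4* were above it in both channels on every array. Cardiac *TNNI3* was at 0.50, -0.03, -0.25 and -0.04 on arrays 1 to 4, the signs of most slow-fibre probes at a smaller size, and *GATA4* at -0.02, -0.04, 0.04 and -0.19; the part of these 2 genes in the slow-fibre values was not tested.

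The slow-fibre genes set array 1 apart from the other arrays. On array 1 the Cy5 bull had more of the transcripts of 7 of the 8 genes than the Cy3 bull, and on arrays 2 to 4 most slow-fibre transcripts were lower in the Cy5 bull or nearly level. The median log2 ratio over the 26 probes was 1.60 on array 1, -0.90 on array 2, -0.49 on array 3 and -0.86 on array 4. Over all tested probes the same medians lay between 0.00 and 0.02. Of the 26 probes, 19 were above 0 on array 1 and below 0 on arrays 2 to 4, and 6.94% of all tested probes had that pattern, or 7.38% of the 5160 tested probes in the members' range of brightness. These signs were read after loess, as is the sign pattern wherever it is named below. With median centring in place of loess, the medians of the 26 probes were 2.66, 0.15, 0.10 and -0.30 on arrays 1 to 4. Only the *MYL3* probes had the sign pattern then, so it depended on the scaling. The pattern was described after the values were seen and was not tested.

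**Figure D1:**
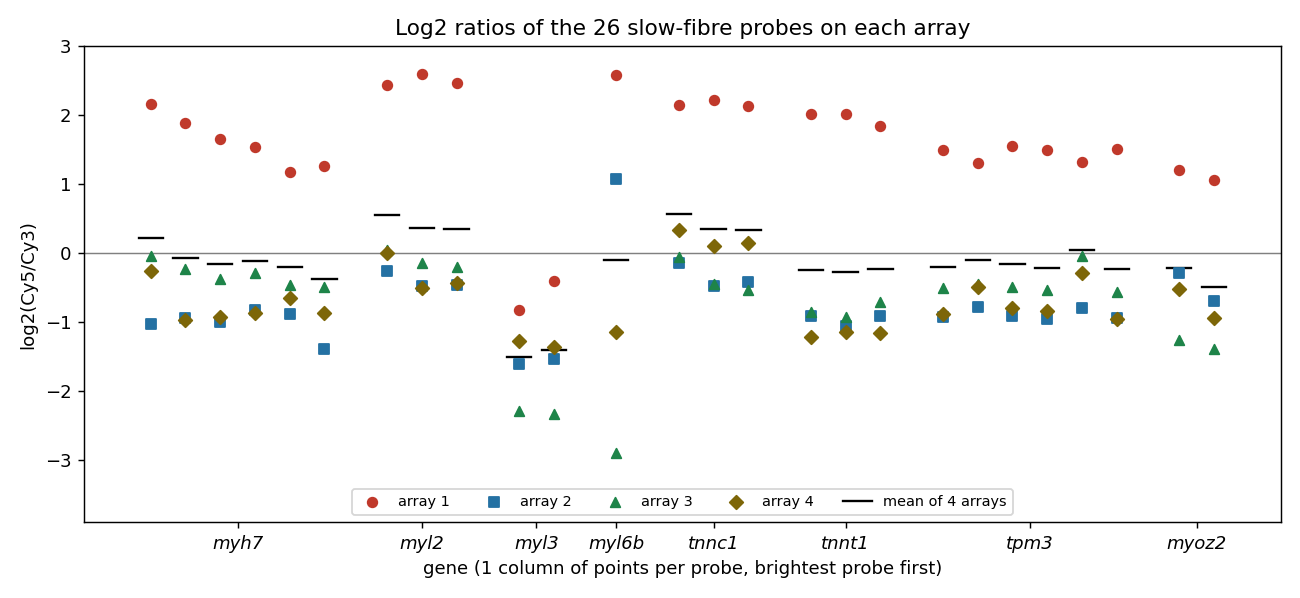
Log2(Cy5/Cy3) of each of the 26 slow-fibre probes on each of the 4 arrays, grouped by gene with the brightest probe first; the black bar is the mean of the 4 arrays. The array 1 points lie above the points of the other arrays at every probe, from -0.82 in *MYL3* to 2.60 in *MYL2*.

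Myosin heavy chain comes first, the motor protein of the thick filament. The slow isoform gene *MYH7* was at 2.16, -1.02, -0.04 and -0.25 on arrays 1 to 4 at its brightest probe. Array 1 was thus far above 0 and the other 3 arrays were below it. The other 5 probes of *MYH7* followed the same order of sign, from 1.17 to 1.88 on array 1 and from -1.39 to -0.23 on arrays 2 to 4. The mean at the brightest probe was 0.21 ± 1.37 (SD, n = 4), with a 95% interval of -0.998 to 1.42 and an adjusted p of 0.836 in limma, so the difference was within the spread between arrays. As deposited, before normalization, the median signal of this probe was 434472 in Cy5 and 26145 in Cy3 on array 1, while on arrays 2 to 4 it was 205120 to 245121 in Cy5 and 102314 to 143708 in Cy3.

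The regulatory light chain of slow fibres, *MYL2*, sits on the neck of the myosin head. Its brightest probe was at 2.43, -0.25, 0.04 and 0.00 on arrays 1 to 4, and the other probes of the gene had values of 2.46 and 2.60 on array 1 and from -0.50 to -0.15 on arrays 2 to 4. Array 1 alone stood clear of 0 at the brightest probe. The mean was 0.56 ± 1.26 (SD, n = 4; limma adjusted p = 0.507, 95% interval -0.56 to 1.67).

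The essential light chain gene *MYL3* differed from the rest after loess, with a log2 ratio below 0 on all 4 arrays. Its brightest probe was at -0.82, -1.61, -2.29 and -1.28 on arrays 1 to 4. The mean was -1.50 ± 0.62 (SD, n = 4), with a 95% interval of -2.07 to -0.93, and it passed the threshold in limma (adjusted p = 0.0401). The second probe was at -0.40, -1.53, -2.33 and -1.36, the same order of arrays, with a mean of -1.41 that did not pass it (adjusted p = 0.0586). Array 1 was again the highest of the 4, but after loess it did not cross 0. With median centring it did, at 0.18 in the brightest probe and 0.45 in the second. Both probes then stayed below 0 on arrays 2 to 4, the sign pattern that most slow-fibre probes had after loess. The call of the brightest probe was lost without any of the 4 arrays in turn (adjusted p from 0.0570 without array 1 to 0.129 without array 2), and with median centring in place of loess its mean was -0.69 and its adjusted p 0.0755.

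The gene *MYL6B* codes for an essential light chain found in slow and non-muscle myosins. Its probe was at 2.58, 1.07, -2.90 and -1.14 on arrays 1 to 4, the widest range of the 8 genes. The Cy5 bull was the higher on 2 arrays and the lower on 2, and the mean of -0.10 ± 2.41 (SD, n = 4; limma adjusted p = 0.961) was far inside that spread.

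On the thin filament, troponin C binds the calcium that starts contraction. Its slow gene *TNNC1* was at 2.15, -0.15, -0.06 and 0.33 on arrays 1 to 4 at the brightest probe. Arrays 2 to 4 were close to 0 here, and array 1 was not. The mean was 0.57 ± 1.07 (SD, n = 4; limma adjusted p = 0.430, 95% interval -0.39 to 1.52). Its other 2 probes were at 2.13 and 2.21 on array 1 and from -0.54 to 0.15 on arrays 2 to 4.

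Troponin T ties the troponin complex to tropomyosin. The slow gene *TNNT1* was at 2.02, -0.91, -0.85 and -1.21 on arrays 1 to 4, and its 3 probes spread little, from 1.84 to 2.02 on array 1 and from -1.21 to -0.71 on the others. Array 1 lay on one side of 0 and arrays 2 to 4 together on the other. The mean was -0.24 ± 1.51 (SD, n = 4; limma adjusted p = 0.831). Without array 1 the brightest probe was at -0.99 ± 0.19 (SD, n = 3; limma adjusted p = 0.0560), and another *TNNT1* probe was the only slow-fibre probe called in that fit (mean -1.04, adjusted p = 0.0464).

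Tropomyosin lies along the thin filament, and *TPM3* gives its slow isoform in muscle and other isoforms elsewhere. The brightest probe was at 1.49, -0.93, -0.51 and -0.88 on arrays 1 to 4. All 6 probes were above 0 on array 1, from 1.31 to 1.55, and below 0 on arrays 2 to 4, from -0.96 to -0.05. The mean was -0.21 ± 1.15 (SD, n = 4; limma adjusted p = 0.806).

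The Z-disc protein gene *MYOZ2*, or calsarcin-1, which binds calcineurin, was at 1.20, -0.29, -1.26 and -0.53 on arrays 1 to 4. Its second probe was at 1.06, -0.70, -1.39 and -0.94. Both probes again had array 1 alone above 0. The mean of the brighter was -0.22 ± 1.03 (SD, n = 4; limma adjusted p = 0.767).

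Of the 26 slow-fibre probes, 1 was called over 4 arrays (limma, Benjamini-Hochberg adjusted p under 0.05), where 3.32% of the 32608 tested probes were called with 1.35% lower in Cy5 and 1.97% higher. At an unadjusted p under 0.05, 2 slow-fibre probes passed, both of *MYL3*, against 24.7% of all tested probes. Without array 1, 25 of the 26 probes were below 0 with a median of -0.72 (all tested probes 0.01), 19 had an unadjusted p under 0.05 where 23.1% of all probes did, and 1 was called where 0.353% of all probes were. With median centring in place of loess, the median of the 26 probes without array 1 was -0.0015, against 0.65 over tested probes of the members' brightness. The position of these probes against 0 thus depended on the scaling. The fit without array 1 leaves out the array that stands apart in these same probes, and it rests on 3 arrays.

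The median over the 26 probes depended on the scaling. With loess it was -0.16, and over all tested probes 0.01. With median centring it was 0.65, over all tested probes 0.24 and over probes of the members' brightness 0.71, since bright probes as a whole read higher in Cy5 before loess. Median centring raised the log2 ratios of the 26 probes by 0.63 to 0.96. With it 24 probes had a mean above 0 and *MYL2* and *TNNC1* were called at their brightest probes (means 1.52 and 1.50, adjusted p = 0.0351 and 0.0243), in a fit that called 32.9% of all probes. The medians of the 26 probes by array were then 2.66, 0.15, 0.10 and -0.30, against 0.87, 1.00, 0.54 and 0.41 over probes of the same brightness, so array 1 was above those probes and arrays 2 to 4 were below them under either scaling.

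The slow-fibre probes varied more between arrays than most of the array did. The SD of their log2 ratios over the 4 arrays ran from 0.62 to 2.41 with a median of 1.17. The median SD was 0.21 over all tested probes and 0.27 over those of the members' brightness. Of all tested probes, 0.534% had an SD above the median of the slow-fibre probes, and of those with the members' brightness 1.36%. The lowest SD among the members was that of *MYL3* and the highest that of *MYL6B*.

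**Figure D2:**
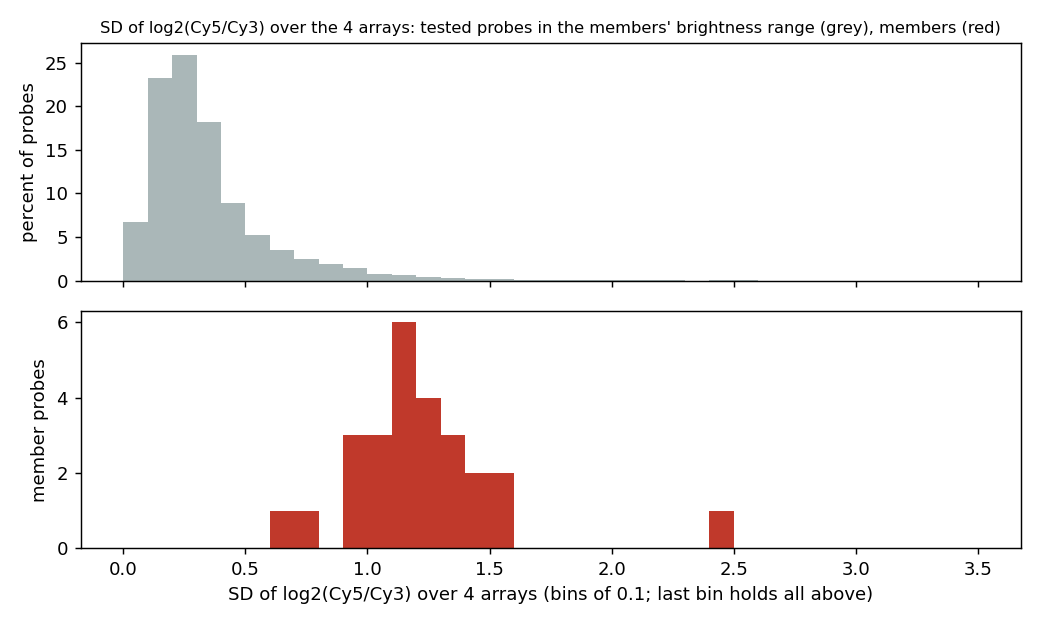
Distribution of the SD of log2(Cy5/Cy3) over the 4 arrays, for the 5160 tested probes in the members' brightness range as percent of probes (top) and for the 26 slow-fibre probes as a count (bottom), in bins of 0.1 log2 units. The slow-fibre probes have a median of 1.17 against 0.27 for probes of like brightness.

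The levels of the separate channels show which bulls stood apart. On array 1 the Cy5 bull had the highest Cy5 level of the 4 at 25 of the 26 slow-fibre probes, and the Cy3 bull had the lowest Cy3 level of the 4 at all 26. Over all tested probes these shares were 28.5% and 28%, and both held at 5.11% of probes. The exception was the brightest *MYL3* probe, where the Cy5 level of array 4 was the highest. Against the mean of the other 3 bulls of the same dye, the Cy5 bull of array 1 was higher by a median of 1.14 and the Cy3 bull of array 1 was at -1.08 (log2, over the 26 probes). The levels are log2 signals after loess and a scaling of the mean intensity between arrays. They hold for comparisons of a probe between bulls of the same dye and not between genes. A Cy5 level set against a Cy3 level also depends on loess, since median centring raised the log2 ratios of these probes by 0.63 to 0.96. Bulk muscle RNA was measured, so that fewer slow fibres and less of these transcripts per slow fibre cannot be told apart.

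For *MYH7* the Cy5 levels were 18.09, 16.83, 17.20 and 17.01 on arrays 1 to 4 and the Cy3 levels 15.93, 17.85, 17.24 and 17.27. The 6 bulls of arrays 2 to 4 thus lay within 16.83 to 17.85, with the 2 bulls of array 1 above and below that range. For *TNNT1* the Cy5 levels were 16.64, 15.06, 15.20 and 14.72 and the Cy3 levels 14.62, 15.97, 16.05 and 15.93. Here the Cy3 bulls of arrays 2 to 4 were nearly level with each other and, after loess, all above the Cy5 bulls beside them. With median centring the log2 ratios of this *TNNT1* probe were 0.16, -0.22 and -0.56 on arrays 2 to 4.

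For *MYL2* the Cy5 levels were 18.17, 17.40, 17.55 and 17.24 and the Cy3 levels 15.74, 17.66, 17.51 and 17.24, so that the bulls of arrays 2 to 4 overlapped between the dyes. For *TNNC1* they were 17.84, 16.96, 16.99 and 16.57 in Cy5 and 15.70, 17.10, 17.05 and 16.24 in Cy3, with the same overlap. For *TPM3* they were 16.16, 15.05, 15.35 and 15.05 in Cy5 and 14.67, 15.98, 15.85 and 15.93 in Cy3. After loess the dyes did not overlap on arrays 2 to 4 for *TPM3*, and on array 1 the order was turned. With median centring the log2 ratios of this probe were 0.14, 0.12 and -0.21 on arrays 2 to 4.

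For *MYL3* the Cy5 levels were nearly the same in all 4 bulls, at 13.73, 13.55, 13.57 and 13.86, with an SD of 0.15. The Cy3 levels were 14.55, 15.16, 15.86 and 15.14, with an SD of 0.54. After loess all Cy3 bulls lay above all Cy5 bulls, whereas with median centring the log2 ratio on array 1 was 0.18. For *MYL6B* the levels ran from 10.75 to 14.33 in Cy5 and from 11.75 to 13.95 in Cy3, with the 2 highest values in the Cy5 bull of array 1 and the Cy3 bull of array 3. For *MYOZ2* they ran from 11.19 to 12.68 in Cy5 and from 11.48 to 12.45 in Cy3, and the dyes overlapped.

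**Figure D3:**
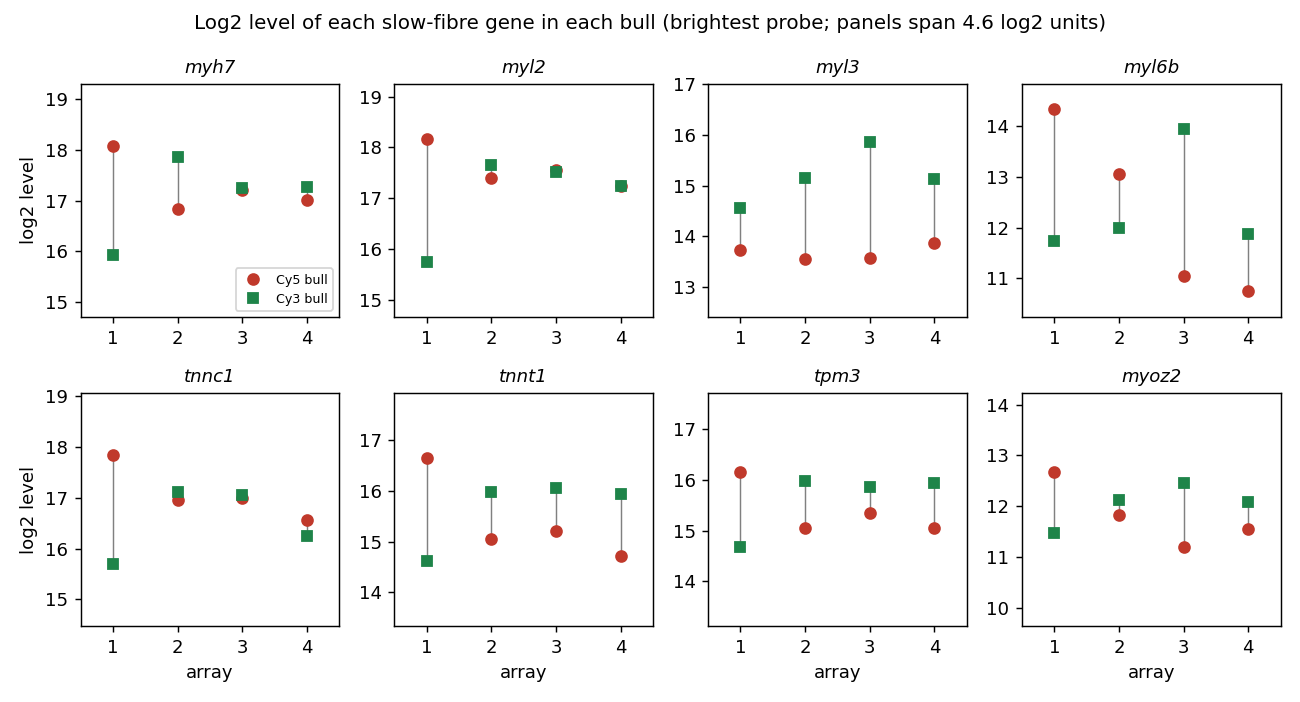
Log2 level of each slow-fibre gene in the Cy5 bull (red circle) and the Cy3 bull (green square) of each array, at the brightest probe of the gene; a grey line joins the bulls of 1 array. Levels are after loess. On array 1 the Cy5 bull lies above the Cy3 bull in every gene but *MYL3*, where it is below on all 4 arrays (13.73 against 14.55 on array 1).

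The tested slow-fibre genes other than *MYL6B* were also set against a fast-fibre counterpart, *MYH7* against both *MYH1* and *MYH2*. Within an array, a shift common to bright probes cancels in part in such a difference. The slow minus fast difference of log2 ratios was above 0 on array 1 in 7 of the 8 pairs. For the troponin T pair, *TNNT1* minus *TNNT3*, it was 3.17, -0.60, -0.02 and -0.74 on arrays 1 to 4. For the troponin C pair, *TNNC1* minus *TNNC2*, it was 2.17, -1.24, -0.71 and -0.78. In both pairs array 1 was on one side of 0 and the other arrays on the other.

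Myosin heavy chain was compared with both fast isoforms on the array. The difference *MYH7* minus *MYH1* (type IIx) was 2.28, -2.20, 0.58 and -0.61, and *MYH7* minus *MYH2* (type IIa) was 1.49, -0.84, -1.91 and -0.62. Array 3 changed sign with the partner chosen. The fast genes themselves moved apart there, *MYH2* at 1.87 and *MYH1* at -0.61.

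The regulatory light chain pair, *MYL2* minus *MYL11*, was at 2.25, -1.13, 0.19 and -0.79, the tropomyosin pair, *TPM3* minus *TPM1*, at 1.95, -2.01, 0.00 and -1.89, and the calsarcin pair, *MYOZ2* minus *MYOZ1*, at 0.72, -0.53, -1.79 and -1.28. The essential light chain pair, *MYL3* minus *MYL1*, was below 0 on all 4 arrays, at -0.62, -1.86, -2.04 and -1.67, with a mean of -1.55 ± 0.64 (SD, n = 4). With 4 arrays the two-sided exact sign-flip permutation test cannot go below p = 0.125, which this pair reached, and no pair passed after Benjamini-Hochberg adjustment over the 8 pairs (adjusted p = 1 for all 8). The pair of the inhibitory troponins could not be formed, and *MYL6B* was in no pair.

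**Figure D4:**
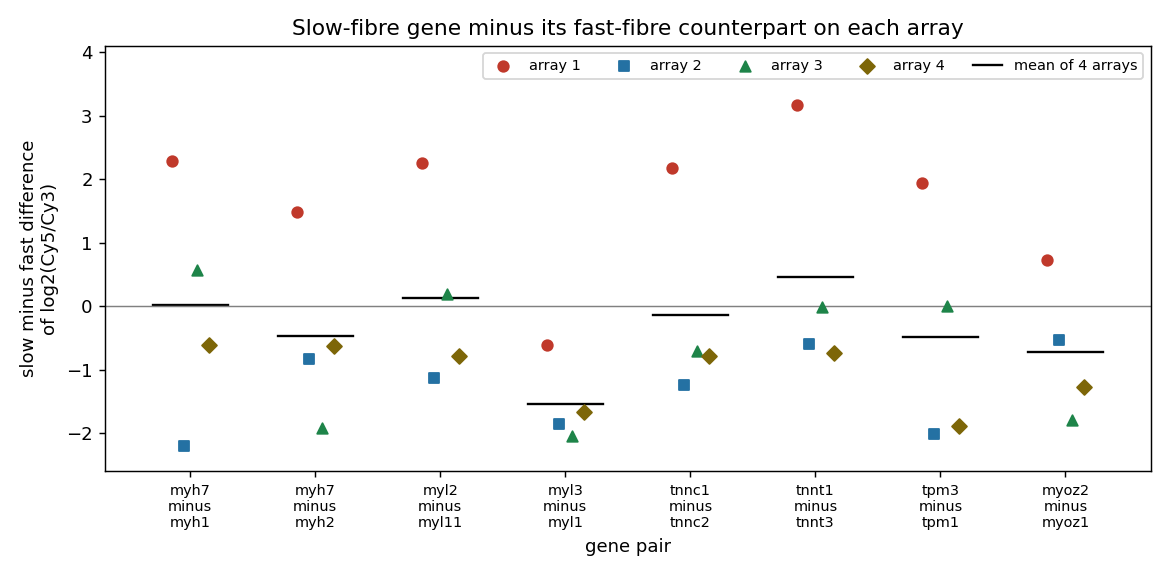
Difference of log2(Cy5/Cy3) between a slow-fibre gene and its fast-fibre counterpart on each array, at the brightest probe of each gene; the black bar is the mean of the 4 arrays. Array 1 is the highest in all 8 pairs, from -0.62 for *MYL3* minus *MYL1* to 3.17 for *TNNT1* minus *TNNT3*.

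The fast-fibre genes did not show the split of the slow genes, with array 1 above 0 and the rest below. Of 13 listed genes, 10 were on the array, with 35 probes, and the list median was -0.08, 0.36, -0.20 and 0.38 on arrays 1 to 4. At their brightest probes none of the 10 fast genes was above 0 on array 1 and below 0 on arrays 2 to 4, where 4 of the 8 slow genes were. The reverse signs were found in 1 fast gene, *TNNC2*, at -0.03, 1.09, 0.64 and 1.11 on arrays 1 to 4. The summed signal over the fast list was 1795306 in the Cy5 bull of array 1 and 1846876.5 to 2017901 in the other Cy5 bulls. In Cy3 it was 1850263 on array 1 and 1408091 to 1744376 on the others. Array 1 was thus the lowest in Cy5 and the highest in Cy3. No fast-fibre probe was called in limma, and 6 of 35 had an unadjusted p under 0.05, where 24.7% of all tested probes did. In the separate-channel fit, which called 9.85% of all probes, 2 were called, and 24 with median centring, which called 32.9%. The smallest p-values were those of *MYOZ1* (0.50, adjusted p = 0.0589), *TNNT3* (-0.69, adjusted p = 0.0635) and *TNNC2* (0.71, adjusted p = 0.106). Whether slow and fast genes differed in mean was tested only through the 8 pairs above.

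Genes whose products work beside the slow sarcomere gave a mixed picture. The list of 11 such genes had 9 on the array, and its median was 1.00, 0.14, -0.51 and -0.44 on arrays 1 to 4. By the smallest p, its named genes were *CSRP3*, a Z-disc LIM protein (1.39, adjusted p = 0.112), *FHL1* (-0.53, adjusted p = 0.115) and *SMPX* (-0.59, adjusted p = 0.129), none of which passed. The slow calcium pump *ATP2A2* was at 1.00, -0.99, 0.11 and -0.63 on arrays 1 to 4, and its inhibitor phospholamban, *PLN*, at 1.75, -1.52, -0.51 and -1.07. These last 2 genes were chosen after their values were seen, and *PLN* had the sign pattern of the slow sarcomere genes. Of the 27 probes of the list, 1 was called, lower in Cy5, where 3.32% of all tested probes were called in either direction.

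Of 25 listed regulators of fibre type, 16 were on the array and their median was between -0.17 and -0.01 on every array. The oestrogen-related receptor gene *ESRRA*, a factor for mitochondrial genes, was called lower in Cy5 (-0.58, -1.66, -0.95 and -0.81 on arrays 1 to 4; limma adjusted p = 0.0486). It was below 0 on all 4 arrays. With median centring its mean was -0.35 and the call was lost (adjusted p = 0.147). Next by p were the kinase gene *CAMK2D* (-0.68, adjusted p = 0.0528) and the calcineurin subunit gene *PPP3R1* (-0.49, adjusted p = 0.0890). The coactivator gene *PPARGC1A*, which drives mitochondrial genes and slow-fibre traits, was at 0.38, -1.88, -1.23 and -1.73 on arrays 1 to 4, with a mean of -1.11 (adjusted p = 0.142). It was the highest on array 1 and was called in the fit without that array (mean -1.61, adjusted p = 0.0464), and it was chosen after its values were seen.

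The 13 genes of oxidative metabolism were all on the array. Their median was 0.24, -0.34, -0.20 and -0.20 on arrays 1 to 4, and 6 of the 13 had the sign pattern of the slow genes at the brightest probe. None of their 42 probes was called in limma, where 3.32% of all tested probes were. At an unadjusted p under 0.05 there were 11, where 24.7% of all tested probes passed. The named genes were *SDHB* of complex II (0.49, adjusted p = 0.0665), the mitochondrial creatine kinase *CKMT2* (-0.48, adjusted p = 0.106) and the ATP synthase subunit *ATP5F1A* (-0.25, adjusted p = 0.108).

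Of 17 sarcomere genes listed as shared between fibre types, 14 were tested, none with the sign pattern of the slow genes at its brightest probe. The list median was 0.26, 0.24, 0.21 and -0.04 on arrays 1 to 4. Within the list *MYBPC1*, named after its values were seen, was at 0.64, -0.44, 0.11 and -0.56, the highest on array 1. The leiomodin gene *LMOD2* (1.60, adjusted p = 0.0349) and the titin cap gene *TCAP* (0.74, adjusted p = 0.0426) were called higher in Cy5, and desmin, *DES*, was next (0.71, adjusted p = 0.0532). The developmental isoforms on the array were below 0 in median on every array, from -1.23 to -0.13, with embryonic *MYH3* at -0.77 (adjusted p = 0.0828), *TNNT2* at -0.47 (adjusted p = 0.156) and *MYL4* at -0.34 (adjusted p = 0.274).

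The 5 genes whose log2 ratios lay nearest to the slow-fibre profile, taken as the median over the 8 genes on each array (2.08, -0.60, -0.68 and -0.70), were chosen by distance over the 4 arrays among 9411 named genes. The nearest was *CD164L2*, at 2.26, -0.67, -0.50 and -0.49 and a distance of 0.336 log2 units. Next came *GPAM*, an enzyme of triglyceride synthesis, at 1.88, -0.78, -0.64 and -1.16 (distance 0.529). Both lay nearer to the profile than any member, of which *TNNT1* was the nearest at 0.623. The heart-type lactate dehydrogenase gene *LDHB*, of oxidative muscle, was at 1.40, -1.20, -0.36 and -0.41 (distance 1.00), the glycogen-targeting phosphatase subunit *PPP1R3C* at 2.36, -0.35, 0.03 and -0.08 (distance 1.02) and the LIM protein gene *PDLIM1* at 1.44, -0.65, 0.00 and -0.23 (distance 1.05). The likeness is over 4 arrays only.

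Markers of other cell types also differed between the bulls. Of the 7 adipocyte markers, 5 were on the array, and *FABP4* was at -2.59 on array 1 and from -1.42 to -0.27 on the others, *CIDEC* at -1.67 and from -0.76 to 0.00, and *PLIN1* at -0.80 and from -0.16 to 0.02. On array 1 these 3 genes were lower in the Cy5 bull, the reverse of most slow-fibre genes. The other 2 were above 0 there, *LPL* at 0.95, -0.30, 0.09 and -1.38 on arrays 1 to 4 and *LEP* at 0.15, 0.10, -0.03 and -0.14, so the list had no common direction on array 1. None of the 8 adipocyte probes was called in limma and 1 had an unadjusted p under 0.05 (*FABP4*, mean -1.19, adjusted p = 0.129), where 24.7% of all tested probes did. Their summed signal over the list was 6283 in the Cy5 bull and 6971 in the Cy3 bull of array 1, against 1770.4 to 4567 in the other Cy5 bulls and 4167 to 4518 in the other Cy3 bulls, so both bulls of array 1 were the highest of their dye. The part of fat cells in the slow-fibre values was not tested.

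The 6 connective tissue markers tested had a median of -1.46, -0.42, -1.37 and -1.28 on arrays 1 to 4, and of -0.56, 0.56, -0.83 and -0.86 with median centring. Of 45 probes for 6 genes, 14 were called, all lower in Cy5, where 1.35% of all tested probes were called lower and 1.97% higher. The probes of a gene are not independent, and 2 of the 6 genes were called in limma at their brightest probe. These were *COL1A1* (-2.05, adjusted p = 0.0290) and *COL3A1* (-1.68, adjusted p = 0.0368), while *COL1A2* was next (-1.34, adjusted p = 0.0564). The summed signal over the connective tissue list ran from 34253 to 64024 in the Cy5 bulls and from 59206 to 107228 in the Cy3 bulls. The 3 collagen genes and *LUM* were below 0 on all 4 arrays, as *MYL3* was. The other 2 were not: *DCN* was at 0.02, 1.15, 0.25 and 0.28 (mean 0.42, adjusted p = 0.240) and *FN1* at -1.05, 0.89, -0.24 and 0.56 (mean 0.04, adjusted p = 0.954). With median centring *DCN* was called higher in Cy5 (mean 1.24, adjusted p = 0.00696). The part of these genes in the *MYL3* value was not tested. *LPL*, *LEP*, *LUM*, *DCN* and *FN1* are named to complete their lists, after their values were seen. Smooth muscle markers had medians of 0.05, -0.28, -0.27 and -0.27, with *CNN1* called lower in Cy5 (-0.79, adjusted p = 0.0364; -0.20 and 0.379 with median centring) and *MYL9* and *LMOD1* at -1.09 and 0.81 (adjusted p = 0.0508 and 0.0557). No probe of the endothelial, blood and immune or nerve markers was called (7, 9 and 14 probes). Of these 0, 3 and 4 had an unadjusted p under 0.05 in limma, where 24.7% of all tested probes did. Without array 1, the calls of *ESRRA*, *LMOD2*, *TCAP*, *COL1A1*, *COL3A1* and *CNN1* were lost as well, with adjusted p from 0.0508 to 0.0715, and without array 2, 3 or 4 only 38, 5 and 5 probes of the whole array were called.

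**Figure D5:**
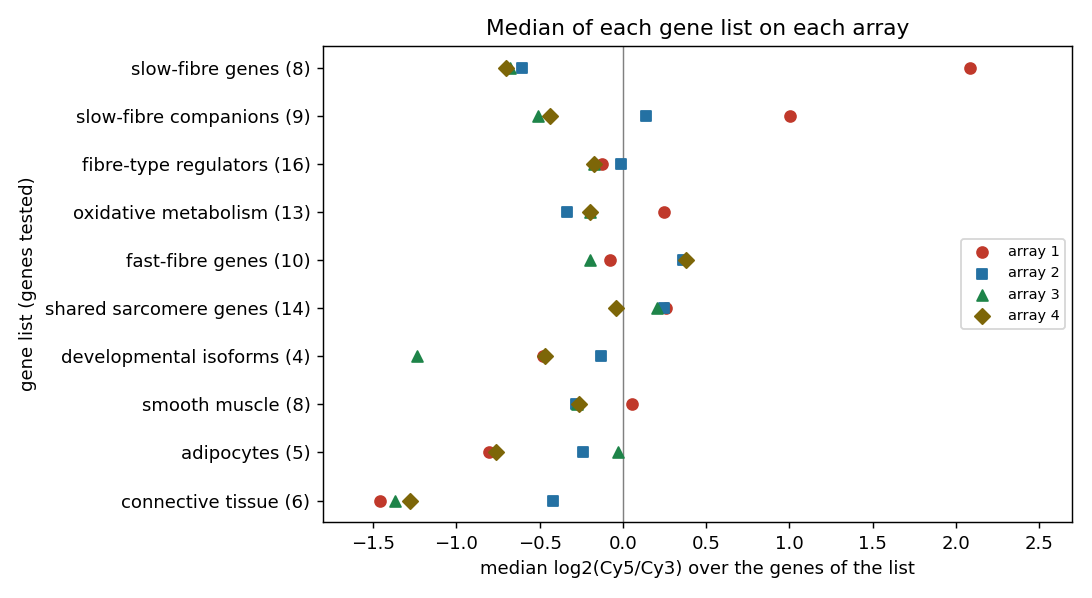
Median log2(Cy5/Cy3) over the tested genes of each list on each array, each gene at its brightest probe, with the number of tested genes in brackets. The slow-fibre genes have array 1 at 2.08 and arrays 2 to 4 between -0.70 and -0.60, the widest gap between array 1 and the rest among the 10 lists shown.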

How the data were processed

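Scanner files of Feature Extraction 10.7.3.1 were deposited, with intensity values per spot. Per the file headers, the array design had been annotated against Btau_3.1. The deposited series table held log10 ratios of Cy5 over Cy3 equal to those of the scanner files (largest difference 0), with no centring added. The median signals were corrected with normexp (offset 50), loess was applied within each array without weight for control spots, spots of 1 probe were averaged, and log2 ratios were tested against 0, two-sided, with limma 3.58.1 (R 4.3.3, statmod 1.5.0). Tested probes were well above background on all 4 arrays in the same channel and had values on at least 3 arrays. P-values were Benjamini-Hochberg adjusted over the 32608 tested probes. Levels per channel were scaled by Aquantile. Names came from RefSeq accessions (ARS-UCD2.0, names only), for 23492 probes.

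The members and gene lists were chosen with earlier results of these data known. Named genes were all members, up to 3 genes of each list with the smallest p, the fast partner genes, and the 5 nearest to the members' median profile. Each gene was represented by its brightest probe. The fit was checked on simulated data. Alternatives were other background corrections, the scanner's signals, the series table, median centring, other filters on dim probes, the mean over probes, a trended robust prior, a separate-channel fit, the methods' t-test, and leaving out each array. The number of arrays limits the precision. The limma p-values rest on the spread between these pairs of bulls, moderated toward the spread of all tested probes. No probe sequences were used.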

Additional observations from a re-analysis of the deposited data

Results flagged for a closer look

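In 8 of the 47 sets of 4 values examined (the log2 ratios, levels, partner differences and list medians), the highest or lowest array lay further from the rest than Dixon's 95% critical value allows; chance alone does this in about 1 in 20 sets, and the sets are not independent because they share the same bulls. Array 1 was the one that stood apart in 7 of the 8. The log2 ratio of *MYL2* was 2.43 there with the next at 0.04, and that of *TNNT1* was 2.02 with the next at -0.85. In the Cy3 bull of array 1 the log2 level of *TNNT1* was 14.6 with the next at 15.9, and that of *TPM3* was 14.7 with the next at 15.9. The *TNNC1* minus *TNNC2* difference was 2.17 with the next at -0.71. The median of the slow-fibre genes was 2.08 with the next at -0.60, and that of the smooth muscle markers was 0.0538 with the next at -0.27. The remaining set was the Cy3 level of *MYL6B*, at 13.9 in the bull of array 3 with the next at 12.0. The causes were not tested.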

How the results depend on the processing

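The count of called slow-fibre probes was 1 and became 2 with plain background subtraction, the stricter filter, the trended robust prior, the separate-channel fit (both *MYL3* probes each time) or median centring (*MYL2* and *TNNC1*), 0 with the methods' t-test, which had 2 slow-fibre probes at an unadjusted p under 0.05 (5932 of all probes), and 0 to 1 when an array was left out. The count over all probes, 1083, became 1666 with the trended prior, 10725 with median centring, 3210 with the separate-channel fit, 0 with the methods' t-test, and 5 to 115 without an array. Fast-fibre calls went from 0 to 24 with median centring and to 2 with the separate-channel fit. The call of *MYL3* was lost with the methods' t-test (adjusted p = 0.215). Median centring turned the mean of *MYL6B* to 0.60, of *MYOZ2* to 0.47, of *TNNT1* to 0.63 and of *TPM3* to 0.66, and the mean over all probes turned *MYH7* to -0.12. Leaving out an array turned uncalled signs: *MYH7* ran from -0.44 to 0.62, *MYL2* from -0.069 to 0.83, *MYL6B* from -0.99 to 0.84, *MYOZ2* from -0.69 to 0.13, *TNNT1* from -0.99 to 0.084 and *TPM3* from -0.77 to 0.035. The differences ran from -0.75 to 0.75 for *MYH7* minus *MYH1*, -1.12 to 0.010 for *MYH7* minus *MYH2*, -0.58 to 0.55 for *MYL2* minus *MYL11*, -0.91 to 0.23 for *TNNC1* minus *TNNC2*, -0.45 to 0.85 for *TNNT1* minus *TNNT3* and -1.30 to 0.020 for *TPM3* minus *TPM1*. The median over the 26 probes ran from -0.72 to 0.08. Each array pairs 1 bull of each breed, so the test of log2 ratios against 0 was paired by array and no further pairing was set. Apart from median centring, which moves the bright probes, the causes were not tested.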
